A study of Mus musculus with 70 samples.

Results

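Astrocyte and Bergmann glia genes were followed through the adult cortex and cerebellum of mice that lack one isoform of Capicua. The set was chosen by name as 10 genes in common use as markers of these cells, and 9 of the 10, out of 50789 gene rows in the table, were analysed here: Gfap, Aqp4, Slc1a2, Slc1a3, Aldh1l1, Gja1, S100b, Sox9 and Aldoc. The tenth, Glul, and all rows of chromosome 1 were not analysed here. Capicua, encoded by Cic, is a DNA-binding repressor made in a short form (CIC-S) and a long form (CIC-L), and the study asked whether tissues depend on the forms differently. Poly(A)-selected RNA was sequenced from mice without the short form (Cic-S-KO), mice without the long form (Cic-L-KO) and pooled wild-type littermates (WT) of both. At 12 weeks of age the cortex and the cerebellum were each represented by 8 WT, 7 Cic-S-KO and 8 Cic-L-KO libraries, all in batch 2 of the labels. Lung from postnatal day 6, with 8 libraries per genotype in batch 1, served only for levels. Both knockouts were compared with the same WT libraries, the line each WT animal came from was not given, and deletion design, strain and sex were not given in the sources used here.

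Astrocytes take up synaptic glutamate, buffer water and potassium at end-feet around blood vessels, and are joined to each other by gap junctions. Bergmann glia are the specialised astrocytes of the cerebellar molecular layer, and they wrap Purkinje cell synapses. Slc1a2 (GLT-1) and Slc1a3 (GLAST) are the main glial glutamate transporters, Aldh1l1 is a folate enzyme and Aldoc (aldolase C) a glycolytic enzyme. Aqp4 is the end-foot water channel and Gja1 (connexin 43) the main astrocyte gap junction protein. Gfap is an intermediate filament protein, S100b a calcium-binding protein, and Sox9 a transcription factor of the glial lineage. Several of these genes are not exclusive to astrocytes: S100b is also made by oligodendrocytes, and Aldoc, as zebrin II, by stripes of Purkinje cells.

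Capicua is known to bind short octamers, and the 4 variants TGAATGAA, TGAATGGA, TCAATGAA and TCAATGGA were searched on both strands in the RefSeq promoter windows of GRCm38.p6, which run from 250 bases before to 50 bases after a transcription start. Windows were found for 7 of the 9 genes (8 windows, of which 2 belong to Aldoc), and 0 of the 7 genes had any of these octamers there. Of all 32851 windows in the table, 3.84% held at least 1. The AP-1 heptamer TGANTCA, added after the Gja1 sequence had been seen, occurred in 1 of the 7 genes and in 7.81% of all windows. The 2 windows printed here belong to Gja1 and Aldh1l1, which changed in opposite directions in the Cic-L-KO cerebellum. Capitals mark the heptamer TGAGTCA, which starts at position -19 from the Gja1 start, and the Aldh1l1 window held no searched motif. The Gja1 window is chr10:56377050-56377349 and the Aldh1l1 window chr6:90550543-90550842, both on the plus strand. In GENCODE the Gja1 gene spans 56377330 to 56402513 on chromosome 10. The Aldh1l1 gene spans 90486427 to 90600203 on chromosome 6, so its RefSeq window lies within the annotated gene, downstream of the first annotated start.
Gja1: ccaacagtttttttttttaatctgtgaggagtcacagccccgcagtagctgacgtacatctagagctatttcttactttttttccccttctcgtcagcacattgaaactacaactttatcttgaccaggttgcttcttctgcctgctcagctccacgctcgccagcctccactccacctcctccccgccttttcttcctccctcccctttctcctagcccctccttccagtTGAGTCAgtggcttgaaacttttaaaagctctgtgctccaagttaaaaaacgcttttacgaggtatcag
Aldh1l1: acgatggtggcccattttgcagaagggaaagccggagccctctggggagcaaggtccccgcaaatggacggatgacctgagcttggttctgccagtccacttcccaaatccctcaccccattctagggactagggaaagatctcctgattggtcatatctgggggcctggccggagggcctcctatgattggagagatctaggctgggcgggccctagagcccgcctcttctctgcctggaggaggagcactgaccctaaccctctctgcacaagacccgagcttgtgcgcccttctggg
A match or its absence describes these letters in these windows only.

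Total counts over the rows analysed ran from 20730808 to 32548951 per cortex library and from 20440799 to 30464699 per cerebellum library. The tissue labels were checked with Tbr1, a cortical neuron gene at 109 to 187 CPM (counts scaled to library size) in cortex and at most 1.29 CPM in cerebellum, and with Gabra6, a granule neuron gene at 359 to 833 CPM in cerebellum and at most 0.458 CPM in cortex. Gene-level Cic counts sum over both isoforms and so cannot show the loss of one. Cic averaged 167 ± 9.02 CPM in WT, 258 ± 7.77 CPM in Cic-S-KO and 306 ± 17.4 CPM in Cic-L-KO cortex (SD, n = 8, 7 and 8). In cerebellum it averaged 187 ± 14.5, 208 ± 15.4 and 206 ± 13.2 CPM, and the knockout effects on Cic were larger in cortex by 0.48 (Cic-S-KO, adjusted p = 3.23e-05) and 0.73 (Cic-L-KO, adjusted p = 7.95e-13) on the log2 scale. Cortex Cic-L-KO replicate 5 stood apart with the highest value of its group for 7 of the 9 astrocyte genes and the highest choroid plexus marker sum of the cortex libraries (1344 CPM). Cortex Cic-S-KO replicate 1 was likewise highest in its group for 7 of the 9 genes.

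In WT animals the 9 genes were regional. Relative to cerebellum, Slc1a2 was higher in cortex and the other 8 genes were lower, all with an adjusted p under 0.05 in edgeR's quasi-likelihood test, where 73.5% of all 18032 genes were called, 35.4% higher and 38.2% lower in cortex. Slc1a2 ran from 2950 to 4022 CPM (median 3634) in cortex and from 919 to 1108 CPM (median 985) in cerebellum, a 3.65-fold difference (log2 1.87, SE 0.064, adjusted p = 6.11e-30). The opposite and largest gap was in S100b, at 89.5 to 113.5 CPM (median 99.8) in cortex and 391 to 504 CPM (median 458) in cerebellum. S100b was thus 4.48-fold lower in cortex (log2 -2.16, SE 0.0569, adjusted p = 6.99e-36). Neither gene had overlapping regions. Aqp4 was 3.32-fold, Aldoc 2.36-fold and Slc1a3 2.16-fold lower in cortex, also without overlap. How many of all genes lacked overlap between the regions was not computed. The regional differences were smaller, with overlapping libraries, for Sox9 (log2 -0.46), Gfap (-0.35), Gja1 (-0.21) and Aldh1l1 (-0.12). Aldh1l1 was close to the threshold (adjusted p = 0.0476), and its call ended under 5 of 10 alternatives, among them DESeq2 (adjusted p = 0.146) and leaving out Cerebellum WT replicate 1 (adjusted p = 0.101). All 6 Bergmann glia genes of the companion list (Gdf10, A2m, Hopx, Fabp7, Wif1 and Timp4) were lower in cortex, with a median log2 difference of -2.27 beside -0.035 over all genes.

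Levels can be set between genes once divided by exon length. On that scale, in CPM per kilobase of exon, Aldoc (278 ± 22) and Slc1a2 (275 ± 24.1) led in WT cortex (SD, n = 8), and these neighbours differed by less than their SD. Slc1a3 (81.7 ± 5.03) and S100b (68.4 ± 5.18) came next, then Gfap (44.7 ± 9.2). Gja1 (26.3 ± 2.09) and Aqp4 (25.7 ± 2.37) again lay within 1 SD of each other, above Aldh1l1 (14.2 ± 1.12) and Sox9 (7.52 ± 1.09). In WT cerebellum Aldoc stood at 657 ± 33.1 CPM per kilobase, followed by S100b at 307 ± 23.8 and Slc1a3 at 177 ± 18.1. Aqp4 (85.4 ± 5.53) and Slc1a2 (75.2 ± 4.17) followed, then Gfap (56.9 ± 6.12), Gja1 (30.6 ± 1.59), Aldh1l1 (15.5 ± 0.99) and Sox9 (10.4 ± 1.41). The order was therefore headed by Aldoc and Slc1a2 in cortex and by Aldoc, S100b and Slc1a3 in cerebellum.

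**Figure D1:**
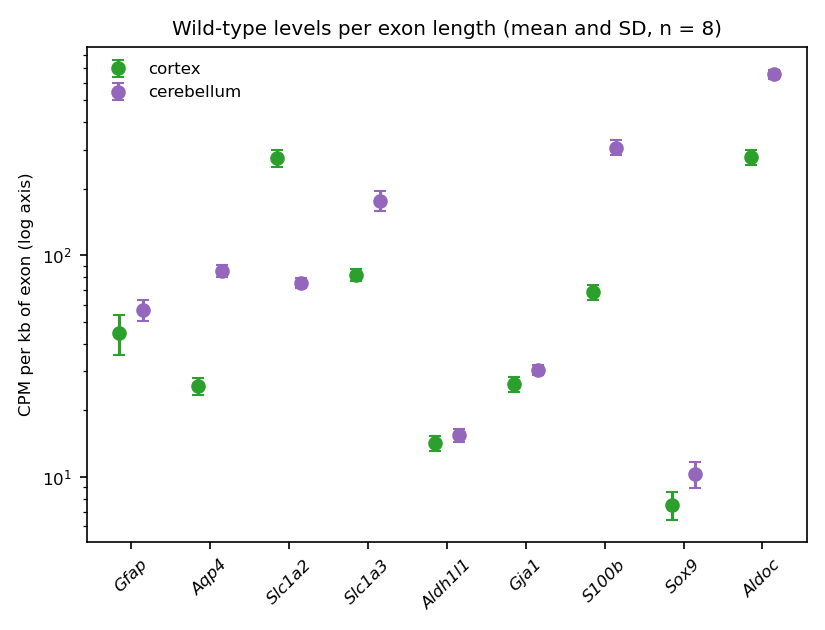
WT level of each gene in CPM per kilobase of exon (log axis) in cortex and cerebellum. Points are means and bars SD over 8 libraries. Slc1a2 is the one gene with the higher point in cortex (275 against 75.2).

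Against WT, calls among the 9 genes were made in 3 of the 4 knockout groups. In Cic-S-KO cortex 0 of 9 genes passed, where 6.53% of all 16974 genes were called (2.83% higher and 3.7% lower); DESeq2 also called 0, and 3 (Gja1, Sox9 and Aldoc) had an unadjusted p under 0.05. In Cic-L-KO cortex 3 of 9 rose (Aldh1l1, Gja1 and Sox9) and 0 fell. In that comparison 43.2% of all genes were called, 21.4% upward and 21.9% downward, so this count did not stand above the background. In Cic-S-KO cerebellum 5 of 9 rose (Slc1a3, Aldh1l1, S100b, Sox9 and Aldoc) and 0 fell, where 8.23% of all 16643 genes were called, 4.34% upward and 3.89% downward. The 5 became 3 with no low-count filter, without Slc1a3 and Aldoc. In Cic-L-KO cerebellum 2 of 9 rose (Gja1 and Sox9) and 2 fell (Aqp4 and Aldh1l1), where 21.5% of all genes were called, 10.9% upward and 10.6% downward. The median log2 fold change of the 9 genes was -0.021 and 0.111 in Cic-S-KO and Cic-L-KO cortex, and 0.124 and 0.044 in the same knockouts' cerebellum. The corresponding medians over all genes were -0.001, 0.011, 0.005 and 0.004. In bulk tissue fewer cells of a type and less RNA per cell cannot be told apart.

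**Figure D2:**
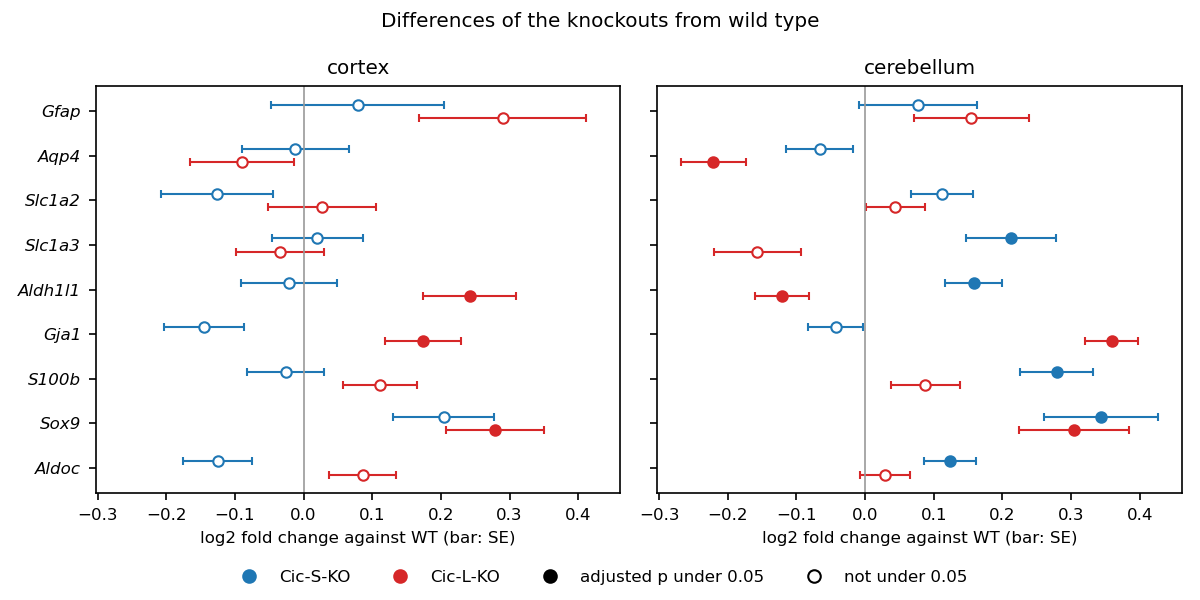
Log2 fold change of each gene against WT in cortex (left) and cerebellum (right), with SE bars; filled points have an adjusted p under 0.05. The points of the 2 knockouts lie on opposite sides of 0 for Aldh1l1 and Slc1a3 in cerebellum, where Aldh1l1 passed in both (0.16 and -0.12) and Slc1a3 in Cic-S-KO alone (0.21).

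Of the glutamate transporters, Slc1a3 passed in knockout contrasts and Slc1a2 did not. Slc1a3 in cerebellum ran from 1217 to 1761 CPM (median 1524) in WT, from 1427 to 1923 CPM (median 1756) in Cic-S-KO and from 1118 to 1597 CPM (median 1335) in Cic-L-KO. Cic-S-KO libraries lay high and Cic-L-KO libraries low, with overlap between all groups. Slc1a3 rose 1.16-fold in Cic-S-KO (log2 0.21, SE 0.0654, adjusted p = 0.0418), a call that held under 7 of 10 alternatives. Those that ended it included leaving out Cerebellum WT replicate 1, the lowest WT library (adjusted p = 0.0562), and no low-count filter (0.129). The Slc1a3 difference in Cic-L-KO (log2 -0.16, SE 0.0633, adjusted p = 0.0773) did not pass, and without the same WT library it did (log2 -0.20, adjusted p = 0.014). Set directly against Cic-L-KO, Slc1a3 was 1.29-fold higher in the Cic-S-KO cerebellum (log2 0.37, SE 0.0654, adjusted p = 0.000331), with 6 of 7 Cic-S-KO libraries above every Cic-L-KO library. This call held under all 10 alternatives run. In cortex Slc1a3 medians were 687, 678 and 671 CPM in WT, Cic-S-KO and Cic-L-KO, and no contrast passed.

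Slc1a2, the transporter with the highest cortical counts of the set, passed in no knockout contrast. Cortex medians were 3634, 3373 and 3565 CPM in WT, Cic-S-KO and Cic-L-KO, and Cic-S-KO spread widest, from 2501 to 3829 CPM. In cerebellum the medians were 985, 1043 and 1017 CPM. All 7 Cic-S-KO cerebella lay above the WT median (log2 0.11, SE 0.0447, adjusted p = 0.117), and the difference passed without Cerebellum WT replicate 1, the highest WT library (log2 0.14, adjusted p = 0.0359).

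The folate enzyme Aldh1l1 changed in opposite directions in the knockouts' cerebella. It ran from 64.3 to 76.0 CPM (median 69.5) in WT, from 74.5 to 84.8 CPM (median 75.7) in Cic-S-KO and from 59.4 to 67.0 CPM (median 64.5) in Cic-L-KO. The lowest Cic-S-KO library exceeded the highest Cic-L-KO library, while WT overlapped both. Aldh1l1 rose in Cic-S-KO (log2 0.16, SE 0.0412, adjusted p = 0.0172) and fell in Cic-L-KO (log2 -0.12, SE 0.0399, adjusted p = 0.0297). The fall passed under 7 of 10 alternatives. Those under which it did not included leaving out Cerebellum WT replicate 1 (adjusted p = 0.0602) and no low-count filter (0.0727). Between the knockouts the difference was 1.21-fold (log2 0.28, SE 0.0413, adjusted p = 3.55e-05), and it held under all 10 alternatives run.

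In cortex the direction for Cic-L-KO was the other way. Aldh1l1 ran from 57.2 to 72.4 CPM (median 64.4) in WT, from 55.3 to 78.0 CPM (median 58.4) in Cic-S-KO and from 68.9 to 83.3 CPM (median 75.2) in Cic-L-KO. All 8 Cic-L-KO libraries lay above the WT median and 5 above every WT library, a rise of 1.18-fold (log2 0.24, SE 0.0675, adjusted p = 0.00517). The cortical and cerebellar effects of Cic-L-KO on Aldh1l1 differed in the joint fit of both regions (log2 0.36, SE 0.0796, adjusted p = 0.000613). In that test 23.0% of 18032 genes were called, 11.5% in each direction, among them 2 of the 9 (Aldh1l1 and Gja1).

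Aldoc, the most abundant of the 9 per kilobase in WT cerebellum, rose slightly in Cic-S-KO cerebellum. Libraries ran from 2029 to 2317 CPM (median 2121) in WT, from 2157 to 2475 CPM (median 2328) in Cic-S-KO and from 2082 to 2380 CPM (median 2149) in Cic-L-KO. All 7 Cic-S-KO libraries lay above the WT median, and 4 above every WT library (log2 0.12, SE 0.0377, adjusted p = 0.0388). This call ended under 5 of 10 alternatives, among them leaving out Cerebellum WT replicate 1 (adjusted p = 0.0515) or Cerebellum Cic-S-KO replicate 6 (0.0563) and fitting the compared genotypes alone (0.0566). In cortex Aldoc had medians of 891, 825 and 964 CPM in WT, Cic-S-KO and Cic-L-KO, and neither knockout differed from WT past the threshold. The cortical difference between the knockouts did pass (log2 -0.21 in Cic-S-KO relative to Cic-L-KO, SE 0.0506, adjusted p = 0.0016), as did those of Aldh1l1 (-0.26, adjusted p = 0.00457) and Gja1 (-0.32, adjusted p = 8.27e-05). These were 3 of 9 genes, all lower in Cic-S-KO, where 33.9% of all genes were called (17.4% higher, 16.5% lower), so this count too was near the background. The Cic-S-KO effect on Aldoc differed between the regions (log2 -0.25 in cortex relative to cerebellum, SE 0.0642, adjusted p = 0.0178).

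Gja1, which encodes connexin 43, was, in the brain libraries, the one gene of the 9 with a knockout group that did not overlap WT. That group was the Cic-L-KO cerebellum, where 21.5% of all genes were called. The share of all genes without overlap was not computed. In cerebellum it ran from 292 to 332 CPM (median 315) in WT, from 292 to 314 CPM (median 303) in Cic-S-KO and from 362 to 456 CPM (median 400) in Cic-L-KO. All 8 Cic-L-KO libraries lay above every WT and every Cic-S-KO library. Gja1 rose 1.28-fold against WT (log2 0.36, SE 0.0387, adjusted p = 3.13e-07), a value that was 0.36 under each of the 10 alternatives. Cic-S-KO lay 1.32-fold below Cic-L-KO (log2 -0.40, SE 0.0402, adjusted p = 9.03e-08) and did not differ detectably from WT (log2 -0.043, SE 0.0401, adjusted p = 0.552).

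In cortex Gja1 ran from 247 to 313 CPM (median 265) in WT, from 209 to 288 CPM (median 242) in Cic-S-KO and from 273 to 344 CPM (median 296) in Cic-L-KO. It rose 1.13-fold in Cic-L-KO (log2 0.17, SE 0.0558, adjusted p = 0.0132), with all 8 libraries above the WT median and 2 above every WT library. Of the 7 Cic-S-KO libraries, 6 lay below every Cic-L-KO library. The Cic-L-KO effect on Gja1 was smaller in cortex than in cerebellum (log2 -0.18, SE 0.0696, adjusted p = 0.0471). That regional difference lay at the threshold and did not pass under 4 of 10 alternatives, including without Cerebellum WT replicate 1 (adjusted p = 0.0535).

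Aqp4 moved the other way from Gja1 in the Cic-L-KO cerebellum. It ran from 500.1 to 602 CPM (median 524) in WT, from 449 to 583 CPM (median 509) in Cic-S-KO and from 404 to 502 CPM (median 447) in Cic-L-KO. Of the 8 Cic-L-KO libraries 7 lay below every WT library. Aqp4 fell 1.17-fold (log2 -0.22, SE 0.0469, adjusted p = 0.00124), and the fall passed under all 10 alternatives run. The difference between the knockouts was smaller (log2 0.15, SE 0.0485, adjusted p = 0.0337) and passed under 8 of 10 alternatives. Those under which it did not included fitting those genotypes alone (0.0501). Cortex medians were 158, 168 and 152 CPM in WT, Cic-S-KO and Cic-L-KO, and no contrast passed.

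Sox9 rose in 3 of the 4 knockout groups against WT. In cerebellum it ran from 32.8 to 52.0 CPM (median 42.7) in WT, from 43.0 to 62.8 CPM (median 54.7) in Cic-S-KO and from 45.04 to 58.9 CPM (median 53.5) in Cic-L-KO. Each knockout group had 5 libraries above every WT library, and all groups overlapped. Sox9 rose 1.27-fold in Cic-S-KO (log2 0.34, SE 0.0829, adjusted p = 0.0115) and 1.23-fold in Cic-L-KO (log2 0.30, SE 0.0802, adjusted p = 0.00771). The knockouts shared their WT libraries, and their own difference did not pass (log2 0.04, SE 0.0826, adjusted p = 0.822). In cortex Sox9 ran from 25.7 to 39.7 CPM (median 30.0) in WT, from 30.9 to 41.6 CPM (median 34.4) in Cic-S-KO and from 34.1 to 41.9 CPM (median 37.4) in Cic-L-KO. All 7 Cic-S-KO and all 8 Cic-L-KO cortices lay above the WT median. The difference passed in Cic-L-KO (log2 0.28, SE 0.0715, adjusted p = 0.00232) and not in Cic-S-KO (log2 0.20, SE 0.074, adjusted p = 0.091).

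S100b, the calcium-binding protein, rose in Cic-S-KO cerebellum. It ran from 391 to 504 CPM (median 458) in WT, from 481 to 627 CPM (median 539) in Cic-S-KO and from 436 to 523 CPM (median 477) in Cic-L-KO, and 6 of 7 Cic-S-KO libraries lay above every WT library. The rise was 1.21-fold (log2 0.28, SE 0.0526, adjusted p = 0.00186), and S100b also lay above Cic-L-KO (log2 0.19, SE 0.0526, adjusted p = 0.0156). Together with Aqp4, Slc1a3 and Aldh1l1 it was 1 of 4 of the 9 genes for which the Cic-S-KO cerebellum exceeded the Cic-L-KO cerebellum, with Gja1 alone lower. In that contrast 12.4% of all genes were called, 6.06% higher and 6.38% lower. In cortex S100b medians were 99.8, 96.6 and 110 CPM in WT, Cic-S-KO and Cic-L-KO, and neither knockout passed. The Cic-S-KO effect on S100b was lower in cortex than in cerebellum (log2 -0.31, SE 0.08, adjusted p = 0.02; 0.0556 with no low-count filter). S100b and Aldoc were the 2 of 9 genes for which that regional difference passed, where 4.5% of all genes were called, 2.01% with the higher and 2.5% with the lower effect in cortex.

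Gfap, the filament protein most often used to mark reactive astrocytes, passed against WT in neither region. In cortex it ran from 141 to 269 CPM (median 181) in WT, from 169 to 222 CPM (median 193) in Cic-S-KO and from 185 to 328 CPM (median 215) in Cic-L-KO. All 8 Cic-L-KO cortices lay above the WT median (log2 0.29, SE 0.122, adjusted p = 0.0604), and the highest was the library that stood apart. In cerebellum the medians were 239, 256 and 241 CPM in WT, Cic-S-KO and Cic-L-KO, and 3 of the 8 Cic-L-KO libraries lay above every WT library (log2 0.16, SE 0.0832, adjusted p = 0.196). Gfap varied most among the WT cortex libraries, with a coefficient of variation of 20.6% beside 6.15% for Slc1a3, so small differences were harder to detect for it.

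**Figure D3:**
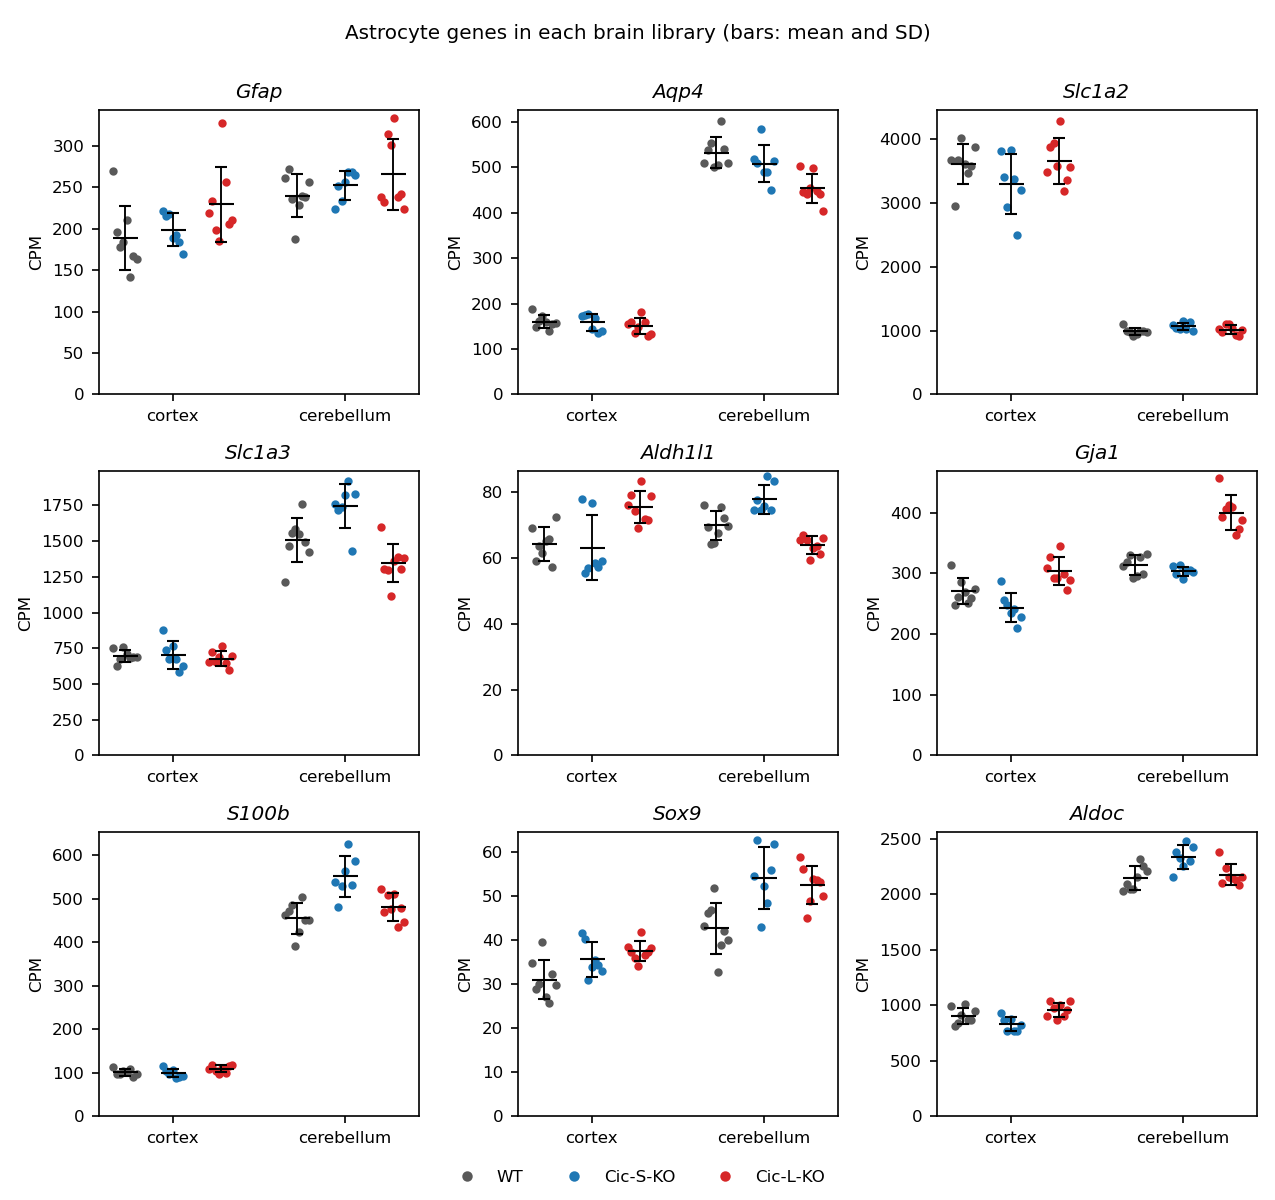
CPM of each of the 9 genes in every brain library, with the axis from 0. Points are libraries, coloured by genotype, and bars give mean and SD. For Gja1 in cerebellum the Cic-L-KO points, from 362 to 456 CPM, lie above all others.

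Further astrocyte genes were read from lists assembled by function. Their counts are to be read against the shares of all genes called: 2.83% higher and 3.7% lower in Cic-S-KO cortex, 21.4% and 21.9% in Cic-L-KO cortex, 4.34% and 3.89% in Cic-S-KO cerebellum, and 10.9% and 10.6% in Cic-L-KO cerebellum. Of 29 other astrocyte genes, 14 rose and 3 fell in Cic-L-KO cortex, with a median log2 fold change of 0.171 beside 0.011 over all genes. The largest rises were in the amino acid and GABA transporters Slc7a10 (24.4 ± 2.31 to 40.4 ± 6.49 CPM, SD, n = 8 and 8; log2 0.73, SE 0.0808, adjusted p = 3.43e-08) and Slc6a11 (171 ± 8.66 to 250 ± 21.8 CPM; log2 0.56, SE 0.0522, adjusted p = 9.87e-10). Chrdl1, a secreted inhibitor of bone morphogenetic proteins made by astrocytes, fell (29.2 ± 3.01 to 17.8 ± 2.48 CPM; log2 -0.71, SE 0.0956, adjusted p = 1.38e-06), as did Dio2, the enzyme that activates thyroid hormone (log2 -0.41, adjusted p = 0.0499). In Cic-S-KO cortex 2 rose (Slc6a11 and the matrix gene Bcan) and 3 fell, among them the connexin Gjb6 (log2 -0.40, adjusted p = 0.0216) and the potassium channel Kcnj16 (log2 -0.34, adjusted p = 0.00212). In Cic-S-KO cerebellum 3 rose, led by Mlc1 (log2 0.19, adjusted p = 0.00403), and Agt fell (log2 -0.37, adjusted p = 0.000297). In Cic-L-KO cerebellum 6 rose, led by the neurotensin receptor Ntsr2 (86.2 ± 7.4 to 111 ± 6.53 CPM; log2 0.37, adjusted p = 2.82e-06), and 2 fell, Chrdl1 (log2 -0.45, adjusted p = 0.000409) and Pla2g7 (log2 -0.14).

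The 6 Bergmann glia genes split in Cic-L-KO cerebellum. Gdf10, a secreted factor of the TGF-beta family, fell from 218 ± 31.3 to 136 ± 17.2 CPM (log2 -0.67, SE 0.0954, adjusted p = 3.86e-05), and Wif1, a Wnt inhibitor, fell from a low level (log2 -0.62, adjusted p = 0.0214). The protease inhibitor A2m (log2 0.42, adjusted p = 0.000491) and the lipid-binding protein Fabp7 (log2 0.31, adjusted p = 0.0359) rose. In Cic-S-KO cerebellum 1 of 6 passed, Hopx, which rose from 80.1 ± 7.43 to 103 ± 8.81 CPM (log2 0.37, adjusted p = 0.000645). Between the knockouts Gdf10 stood at 267 ± 39.8 CPM in Cic-S-KO and 136 ± 17.2 CPM in Cic-L-KO (log2 0.97, SE 0.0984, adjusted p = 5.7e-07). In Cic-S-KO cortex 0 of 6 passed, while in Cic-L-KO cortex Timp4 rose (log2 0.29, adjusted p = 0.00251) and Gdf10 fell from a low level (log2 -0.46, adjusted p = 0.000873).

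Genes reported in reactive astrocytes were tested in smaller number because several were too low to pass the count filter, 24 of 29 in cortex and 25 of 29 in cerebellum remaining. The list is not exclusive to astrocytes, with a median sum of 4585 CPM in WT lung. Which cells its changes lay in was not tested. In Cic-L-KO cerebellum 3 of 5 endothelial and 3 of 4 meningeal markers rose. There 10 of 25 listed genes rose and 0 fell, with a median log2 fold change of 0.289 beside 0.004 over all genes. They were led by Emp1, a membrane protein (2.63 ± 0.47 to 6.19 ± 1.56 CPM; log2 1.24, adjusted p = 1.6e-06), and Ggta1 (log2 0.76, adjusted p = 0.000649). In Cic-L-KO cortex 5 of 24 rose, near the 21.4% of all genes that rose there, and 1 fell, where 21.9% of all genes fell. Serpina3n, a secreted protease inhibitor, rose from 11.2 ± 1.92 to 35.5 ± 1.82 CPM (log2 1.67, SE 0.0758, adjusted p = 6.17e-17). Emp1 rose (log2 1.13) and the hyaluronan receptor Cd44 fell (log2 -1.0, adjusted p = 8.71e-06). Serpina3n belongs to a cluster of close paralogs, so the split of reads between copies is uncertain. In Cic-S-KO cerebellum 3 rose, Emp1 (log2 0.65, adjusted p = 0.0106) and Gbp2 (log2 0.52, adjusted p = 0.0214) among them, and in Cic-S-KO cortex 1 rose and 2 fell, the latter being Serpina3n (log2 -0.42, adjusted p = 0.00377) and Cd14 (log2 -0.48, adjusted p = 0.0351).

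Among 13 genes of glutamate and glutamine handling, 3 rose and 3 fell in Cic-L-KO cortex, and 5 rose and 1 fell in Cic-L-KO cerebellum. The cortical count was near the 43.2% of all genes called there, and 10.9% of all genes rose in the Cic-L-KO cerebellum. The glutamine exporter Slc38a3 rose in Cic-L-KO cortex (log2 0.30, adjusted p = 0.000648) and in Cic-S-KO cortex (log2 0.23, adjusted p = 0.0485), and the transaminase Got1 rose in Cic-L-KO cerebellum (log2 0.21, adjusted p = 0.000113). Slc38a5 rose by more in Cic-L-KO cerebellum, from a low level (log2 0.69, adjusted p = 0.0449). Of the neuronal vesicular transporters, Slc17a6 rose in Cic-L-KO cortex (log2 0.44, SE 0.108, adjusted p = 0.00226), and Slc17a7 fell in Cic-L-KO cortex (log2 -0.38, adjusted p = 4.45e-10), Cic-L-KO cerebellum (log2 -0.31, adjusted p = 0.00411) and Cic-S-KO cerebellum (log2 -0.27, adjusted p = 0.0291). Of 11 end-foot, water and gap junction partners, 5 rose and 0 fell in Cic-L-KO cerebellum, among them caveolin Cav1 (log2 0.45, adjusted p = 0.00166) and the connexin Gjb2 (log2 0.41, adjusted p = 0.0274), both of which are also made by vascular or meningeal cells. Cav1 also rose in Cic-S-KO cerebellum (log2 0.48, adjusted p = 0.00437), as did Dag1 (log2 0.19, adjusted p = 0.00139). They were 2 of 11 there, with 0 lower, where 8.23% of all genes were called. Only Dtna passed in Cic-S-KO cortex, and it fell (log2 -0.14, adjusted p = 0.0216). In Cic-L-KO cortex 3 of the 11 rose and 2 fell, near the 43.2% of all genes called: among them the dystrophin-complex gene Dtna rose (log2 0.31, adjusted p = 3.62e-08) and Dmd fell (log2 -0.38, adjusted p = 3.03e-07). Trpv4 rose there by more than Dtna, from a low and variable level (2.22 ± 1.44 to 5.36 ± 3.97 CPM, log2 1.27, adjusted p = 0.0401). Of 11 astrocyte transcription factors, 2 rose and 2 fell in Cic-L-KO cortex, 2 rose in Cic-S-KO cerebellum, and 1 rose and 2 fell in Cic-L-KO cerebellum. Over all genes 43.2%, 8.23% and 21.5% were called in these 3 contrasts, so the cortical count was again near the background. Sox2 rose in Cic-L-KO cortex (log2 0.16, adjusted p = 0.0153), Cic-S-KO cerebellum (log2 0.22, adjusted p = 0.0294) and Cic-L-KO cerebellum (log2 0.23, adjusted p = 0.00846). Zbtb20 rose by more in Cic-L-KO cortex (log2 0.32, adjusted p = 0.00562). In Cic-S-KO cortex, where 6.53% of all genes were called, 1 of the 11 passed, Lhx2, which fell (log2 -0.19, adjusted p = 0.0118). Nfib fell in Cic-L-KO cortex (log2 -0.19, adjusted p = 3.68e-05) and cerebellum (log2 -0.26, adjusted p = 0.00108). Id4 fell in both of those groups (log2 -0.31 and -0.14) and rose in Cic-S-KO cerebellum (log2 0.16, adjusted p = 0.0353).

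**Figure D4:**
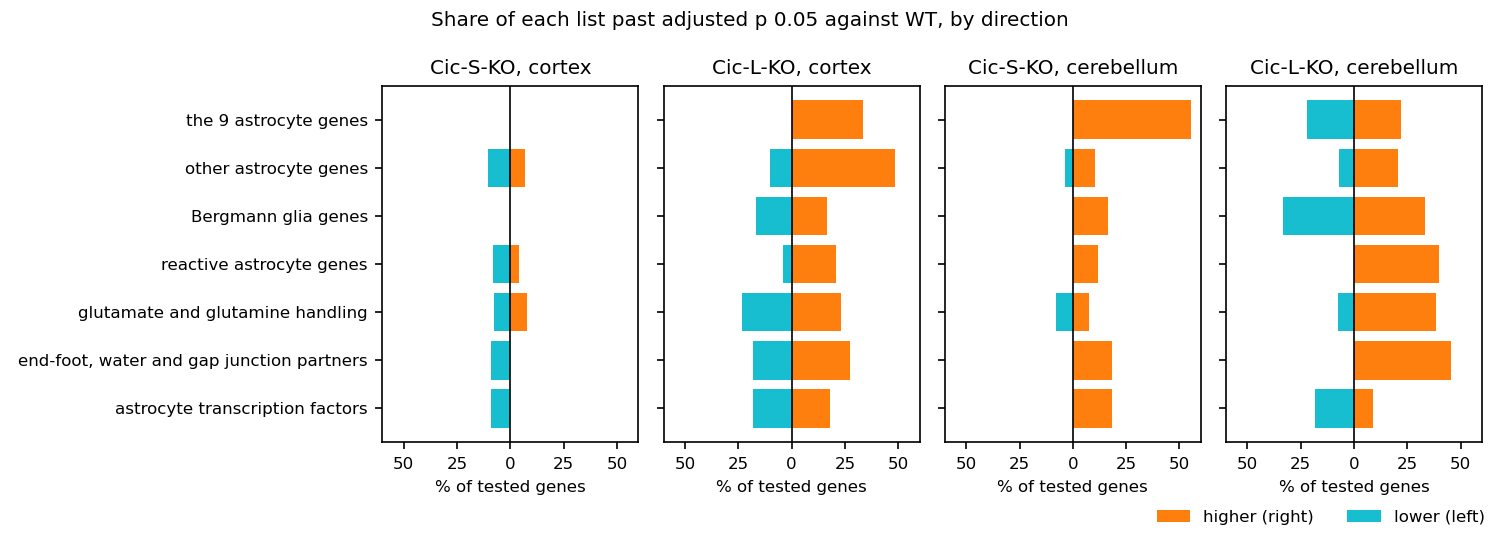
Share of the tested genes of each list called against WT, with genes higher drawn to the right and genes lower to the left of 0 (percent of tested genes). The 9 astrocyte genes have the longest bar in Cic-S-KO cerebellum (5 of 9 higher), and the other astrocyte genes have theirs in Cic-L-KO cortex (14 of 29 higher).

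Markers of other cell types moved with some of these differences. Of all genes, 2.83% were higher and 3.7% lower in Cic-S-KO cortex, and 21.4% and 21.9% in Cic-L-KO cortex. In cerebellum these shares were 4.34% and 3.89% in Cic-S-KO, and 10.9% and 10.6% in Cic-L-KO. In Cic-L-KO cortex 6 of 9 neuron markers were lower and their sum ran from 6127 to 7170 CPM beside 8059 to 8912 CPM in WT, without overlap. In Cic-S-KO cortex, where 0 of the 9 astrocyte genes passed, 3 of 9 neuron markers were lower and the sum, at 7231 to 7866 CPM, also lay wholly below WT. Choroid plexus and ependymal markers (3 of 6 higher in Cic-L-KO) summed to between 26.2 and 1344 CPM in Cic-L-KO cortex, beside 27.8 to 616 CPM in WT. The same 3 astrocyte genes passed in Cic-L-KO cortex with the log of that choroid plexus sum as a covariate and without replicate 5. In cerebellum the choroid plexus sum varied more widely. It ran from 37.9 to 2980 CPM in WT, 152 to 4057 CPM in Cic-S-KO and 452 to 3335 CPM in Cic-L-KO. There 0 of 6 of these markers passed in either knockout, with a median log2 fold change of 0.52 in Cic-L-KO. In Cic-S-KO cerebellum 4 of 5 granule neuron markers were lower (sum 2634 to 4055 CPM beside 3889 to 5051 CPM in WT) and 4 of 9 neuron markers were lower. Oligodendrocyte markers, 1 of 9 of them higher, summed there to between 7371 and 11596 CPM beside 6135 to 10365 CPM in WT, and 2 of 5 Purkinje cell markers were higher. In Cic-L-KO cerebellum 4 of 9 neuron markers were lower and 1 higher, with a sum of 5529 to 6163 CPM beside 5990 to 6528 CPM in WT. There 3 of 5 endothelial markers and 3 of 4 meningeal markers were higher, and the endothelial sum ran from 159 to 192 CPM beside 119 to 154 CPM in WT. Between the knockouts in cortex, 7 of 9 oligodendrocyte and 6 of 9 neuron markers were higher in Cic-S-KO and 0 lower, where 33.9% of all genes were called. Striatal neuron markers (1 of 4 higher) had median cortex sums of 284 CPM in Cic-S-KO, 140 in WT and 120 in Cic-L-KO, with overlap. The part of the neuronal, oligodendrocyte, striatal, vascular and meningeal shifts in the astrocyte gene differences was not tested. The sum of the 9 astrocyte genes itself ran from 6544 to 7245 CPM in Cic-S-KO, 5956 to 6845 CPM in Cic-L-KO and 6018 to 6854 CPM in WT cerebellum.

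**Figure D5:**
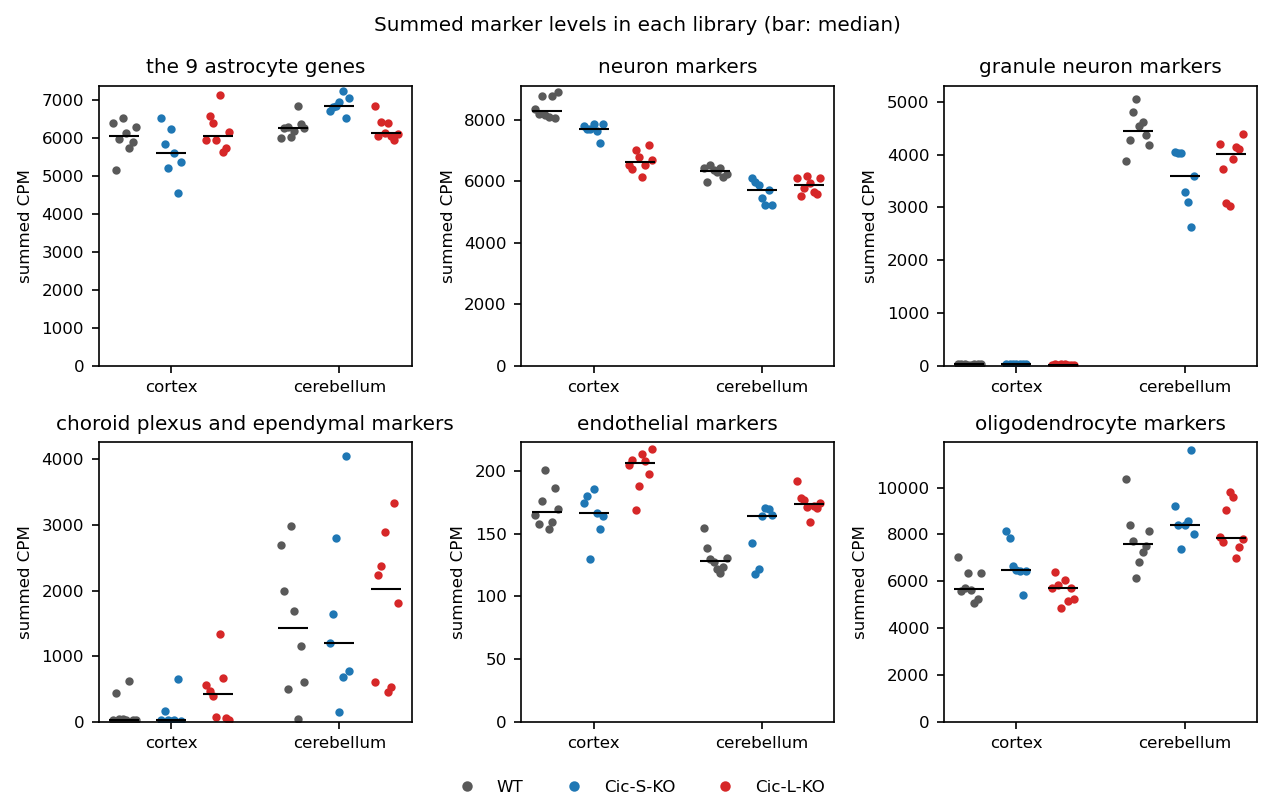
Summed CPM of the 9 astrocyte genes and of 5 marker lists in every brain library, with the axis from 0 and a bar at each median. The Cic-L-KO cortex points of the neuron markers (6127 to 7170 CPM) lie below all WT cortex points.

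In postnatal lung 8 of the 9 genes were low. WT means were 0.508 ± 0.271 CPM for Gfap, 3.52 ± 1.64 for Slc1a2, 3.63 ± 0.882 for Aldh1l1, 4.06 ± 0.621 for Aldoc and 4.68 ± 0.954 for S100b (SD, n = 8). Sox9 (7.37 ± 1.99 CPM), Aqp4 (8.14 ± 1.65 CPM) and Slc1a3 (24.8 ± 3.7 CPM) were higher, and Gja1, a connexin of many tissues, reached 182 ± 16.3 CPM. The lung libraries were scaled among themselves, so their values are not set against brain levels here.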

How the data were processed

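The deposited table holds raw read counts per gene for 70 libraries; per the submitters' processing notes reads were aligned to GRCm38.p6 with STAR 2.7. The counting program, annotation and strand setting were not given in the sources used here. Versioned Ensembl identifiers were matched to GENCODE M21 (GRCm38), and 50639 of 50789 matched, 49049 with the version; exon lengths came from the same annotation. All 9 analysed genes passed the low-count filter in both brain regions. Rows of chromosome 1 and some rows of chromosomes 17, 18 and 19 were not analysed here.

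Counts were tested with edgeR 4.0.16 (R 4.3.3): TMM scaling, filterByExpr, a robust quasi-likelihood fit over the 3 genotypes of a region, or over all 6 brain groups for regional differences, and Benjamini-Hochberg adjustment over all genes tested, with a threshold of 0.05. Printed brain CPM use TMM factors over the 46 brain libraries. Alternatives were RLE scaling, DESeq2 1.42.0, omitting the filter, requiring a mean of at least 50 counts, a Y-linked covariate, the replicate number as a block and fits of only the compared genotypes. Leaving out 3 libraries and a choroid plexus covariate were chosen after seeing the data. On simulated counts with 200 genes changed by 1 on the log2 scale, edgeR recovered 185 of 200 (16762 genes, Cic-L-KO against WT cortex) and 148 of 200 for the regional difference (17655 genes). Replicates are separate labelled samples; whether each is a separate animal was not given, so p-values measure the spread between these samples. No 2 replicates held identical counts.

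The genes and lists were chosen with earlier results of these data known. Besides the 9 genes, at most 2 genes were eligible for naming per list, direction and knockout contrast. These were past the threshold, with the largest change and a mean log2 CPM of at least 1, and not all of them are named. Promoter sequences are from RefSeq (GRCm38.p6). No abundant gene shares exons with the 9.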

Additional observations from a re-analysis of the deposited data

Results flagged for a closer look

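For 4 genes the effect of a knockout differed between cortex and cerebellum when the difference itself was tested over both regions: S100b (log2 -0.31) and Aldoc (-0.25) for Cic-S-KO, and Aldh1l1 (0.36) and Gja1 (-0.18) for Cic-L-KO, each as cortex minus cerebellum. Of all genes, 4.5% were called for Cic-S-KO and 23.0% for Cic-L-KO, so the Cic-L-KO count was near the background. Of 10 alternatives, S100b passed under 9, Aldoc and Aldh1l1 under 10 and Gja1 under 6.

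Single libraries lay far from the rest of their group in 5 of the 81 gene and group combinations, where chance alone gives about 4.05. Slc1a2 was 1107.6 CPM in Cerebellum WT replicate 1, with the next library at 993.9 CPM. Slc1a3 was 1427.2 CPM in Cerebellum Cic-S-KO replicate 6, with the next at 1717.5 CPM. In lung, Gfap was 1.717 CPM in Cic-S-KO replicate 5 (next 0.7972), Aqp4 9.721 CPM in Cic-L-KO replicate 5 (next 6.081) and Slc1a2 7.095 CPM in WT replicate 7 (next 4.151).

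The lung libraries entered no comparison of these genes. There, all 8 Cic-L-KO libraries were above every WT library for Aldoc, the lowest at 5.525 CPM and the highest WT library at 5.096 CPM, with no test run. Mean Aldoc was similar in Cic-S-KO lung (6.17 CPM beside 6.29 in Cic-L-KO and 4.06 in WT), where the lowest library, at 4.664 CPM, overlapped WT. For lung, too, the share of all genes without overlap was not computed.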

How the results depend on the processing

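Over 783 combinations of a gene, a contrast and an alternative, 743 kept direction and side of the threshold, 24 lost and 7 gained a call, and 9 changed sign, all 9 of them differences that did not pass. Counts of genes called moved as follows. Cic-L-KO cortex had 5 of 9 with a mean of at least 50 counts (Gfap and S100b added, main 3). Cic-S-KO cerebellum had 3 with no low-count filter (Aldoc and Slc1a3 lost, main 5). The regional difference had 1 for Cic-S-KO with no low-count filter (S100b lost, main 2), and for Cic-L-KO 1 with no low-count filter, 1 with a mean of at least 50 counts, 1 with the choroid plexus covariate and 1 without Cerebellum WT replicate 1 (Gja1 lost each time, main 2). The causes were not tested.

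With the labels' replicate numbers entered as a block, 3 genes were called in Cic-S-KO cerebellum (Slc1a3, adjusted p = 0.132, and Aldoc, 0.109, not called) and 3 between the knockouts in cerebellum (Aqp4 and S100b not called), 4 in Cic-L-KO cortex (Gfap added) and 3 in Cic-L-KO cerebellum (Aldh1l1 not called). The numbers were not taken as pairs in the main fits. Same-numbered libraries of 1 genotype in both regions correlated between -0.0311 and 0.215 in their deviations, with 10 of 23 over 0.1. Of the 23 cortex libraries, 10 correlated best with the cerebellum library of their own number. Each had 7 or 8 candidates, the cerebellum libraries of its genotype, so a random pick would match less often. Library names of Cic-S-KO skip a number in both regions, so their replicate numbers differ from the library numbers. Whether both regions came from the same animals was not given, and the main regional tests treated the libraries as independent.

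The sign changes were Aqp4 in Cic-S-KO cortex (0.0016, mean of at least 50 counts), Slc1a2 in Cic-L-KO cortex (-0.0029, without Cortex Cic-L-KO replicate 5), and, for the regional differences, Gfap for Cic-S-KO (-0.0026 with RLE scaling, -0.0025 with DESeq2, -9.7e-05 with the Y-linked covariate, -0.018 without Cerebellum WT replicate 1), Slc1a2 for Cic-L-KO (0.0082 with a mean of at least 50 counts, 0.0037 with the choroid plexus covariate) and Sox9 for Cic-L-KO (0.00047, mean of at least 50 counts). Gfap kept its sign without Cerebellum Cic-S-KO replicate 6 (0.015). Over all genes, calls in Cic-S-KO cortex fell from 1108 to 732 with no low-count filter, 654 with only the compared genotypes and 627 with the block. In Cic-S-KO cerebellum they fell from 1370 to 883 without Cerebellum Cic-S-KO replicate 6 and 591 with the block, and for the Cic-S-KO regional difference from 812 to 446 with no filter and 545 without that library. The strand setting is unknown, so reads of antisense partners cannot be separated.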
